A study of Mus musculus with 4 samples.

Results

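Psmg2 and Ptpn2 lie next to each other on mouse chromosome 18, and 8 of their neighbours there were described with them: Tubb6, Afg3l2, Prelid3a, Spire1 and Cep76 on one side, and Seh1l, Cep192 and Ldlrad4 on the other. The 10 genes were found by symbol among the 55450 genes of the deposited tables, and each had 1 row. They were picked with their difference between the diets already in view, so that difference is given for all 10 as a description, with its standard error (SE) and no p-value. Their levels in the cell types were not used for the choice and were tested. The data were single-cell transcriptomes of dissociated mouse testis, with 2 libraries for a high-fat diet (HFD) and 2 for a normal diet (ND). Strain, age and length of feeding are not given in the labels. They do not say whether the libraries are of different mice, nor give a batch or date, so the spread between libraries may be technical.

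On GRCm38, the 10 genes ran from chr18:67390717-67402749, the position of Tubb6, to chr18:67933257-68268630, the position of Ldlrad4, a span of 877.914 kb. All 10 are protein-coding genes. Psmg2 lies at chr18:67641599-67654162 on the plus strand. Cep76 lies at chr18:67617800-67641336 on the minus strand, so the pair is arranged head to head with 262 bp between the genes. Ptpn2 follows on the minus strand at chr18:67665511-67724595, 11348 bp beyond the end of Psmg2. Spire1 (chr18:67488209-67610790, minus strand) and Prelid3a (chr18:67464866-67479835, plus strand) precede Cep76. Afg3l2 (chr18:67404764-67449172, minus strand) lies between Prelid3a and Tubb6, which is on the plus strand. Beyond Ptpn2 come Seh1l (chr18:67774876-67795487), Cep192 (chr18:67800107-67885170) and Ldlrad4, all on the plus strand.

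As background, these neighbours have unrelated roles. Psmg2, also called PAC2, is a chaperone that pairs with PAC1, the product of Psmg1, and helps the alpha ring of the proteasome core to assemble. The core is the chamber in which ubiquitin-marked proteins are cut, and male germ cells carry a testis form of it with the alpha subunit Psma8. Ptpn2, also called TC-PTP, is a tyrosine phosphatase that removes phosphate from Janus kinases, STAT proteins and the insulin receptor, and so damps cytokine and insulin signalling. Among the neighbours, Afg3l2 is a subunit of a protease of the inner mitochondrial membrane, and Prelid3a belongs to a family that carries phospholipids between the mitochondrial membranes. Spire1 nucleates actin filaments, and Tubb6 is a beta tubulin. Cep76 and Cep192 are centrosomal proteins, the first a limiter of centriole duplication and the second a scaffold of the material around centrioles. Seh1l is a subunit of the nuclear pore Y complex and of the GATOR2 complex of the mTORC1 pathway. Ldlrad4 dampens TGF-beta signalling by binding receptor-regulated Smads.

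The files held 13561 and 14368 barcodes for HFD 1 and HFD 2, and 15290 and 14618 for ND 1 and ND 2, with 143748262 to 154221188 molecules (UMIs, unique molecular identifiers) per library. The labels state about 13000 recovered cells per channel, and 13122 to 14467 cells per library remained after filtering. Pairs of libraries shared 42 to 65 barcode sequences. Cells were grouped into 26 clusters without using the 10 genes, and 21 of these were named for the markers they resembled. The 9 resulting classes with at least 50 cells in every library were early spermatocyte-like, pachytene and later spermatocyte-like, round spermatid-like, elongating spermatid-like, Leydig-like, Sertoli-like, macrophage-like, lymphocyte-like, and fibroblast and peritubular-like cells. The suffix is dropped below. The early spermatocyte class takes in a cluster of 1000 cells that scored nearly as high for spermatogonia as for early spermatocytes, 2.88 against 3.35. The elongating spermatid class takes in a cluster of 2508 cells that scored 1.465 for elongating and 1.01 for round spermatids. Its 10 leading genes held 0 of the class markers, and it was the deepest cluster of that class. Between 26.3% and 31.2% of the cells of a library stayed unnamed, most of them of low depth. The Sertoli sums were mixed: the 10 elongating spermatid markers summed to 77564 to 92033 CPM (UMIs of a gene scaled to the total of a library or class), against 150444 to 160277 in elongating spermatids themselves.

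Counts of a gene were summed over the cells of a library and are given as CPM, the usual scaling to the UMI total of that library or class. UMIs were counted at the 3′ end, so a CPM does not depend on gene length. Over all cells of the testis, Psmg2 stood at 64.8 and 67.8 CPM in HFD 1 and HFD 2 and at 35.6 and 34.8 CPM in ND 1 and ND 2. Both HFD libraries lay far above both ND libraries. The mean was 66.3 ± 2.11 CPM (SD, n = 2 libraries) in HFD and 35.2 ± 0.586 CPM in ND, and the log2 ratio of HFD over ND was 0.92 ± 0.042 (SE). Ptpn2 was at 28.7 and 28.3 CPM in HFD and at 13.7 and 14.0 CPM in ND. Its means were 28.5 ± 0.275 and 13.9 ± 0.194 CPM, a ratio of 2.06 and a log2 ratio of 1.05 ± 0.047, the largest of the 10. These values rest on 18650 and 9383 UMIs of Psmg2 and on 8033 and 3694 UMIs of Ptpn2 in HFD and ND. In sums over a whole tissue, fewer cells of a type and less RNA per cell cannot be told apart, and the classes are taken up below.

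The 3 genes just before Psmg2 were also higher in HFD. Cep76 was at 10.2 and 11.2 CPM in HFD and at 5.67 and 6.37 CPM in ND, a log2 ratio of 0.83 ± 0.071. Spire1 was at 7.44 and 7.0 CPM in HFD and at 4.38 and 4.49 CPM in ND, a log2 ratio of 0.71 ± 0.073. Prelid3a was scarce, at 2.08 and 2.47 CPM in HFD and at 1.12 and 1.31 CPM in ND, and its log2 ratio of 0.91 ± 0.13 rests on 639 and 324 UMIs. Prelid3a, Spire1, Cep76, Psmg2 and Ptpn2 are thus 5 protein-coding genes in a row, over 259.73 kb, in which HFD was higher by a log2 ratio of 0.71 to 1.05. Summed over the 5 genes, the level was 113 and 117 CPM in HFD and 60.5 and 60.9 CPM in ND.

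Outside that run the picture was mixed. Afg3l2, the next gene on the Prelid3a side, was at 28.0 and 28.8 CPM in HFD and at 27.0 and 28.1 CPM in ND, so the diets overlapped. Tubb6 beyond it was lower in HFD, at 35.6 and 33.8 CPM against 45.4 and 46.8 CPM, with a log2 ratio of -0.40 ± 0.046. On the other side, Seh1l was lower in HFD, at 2.60 and 2.55 CPM against 2.98 and 3.47 CPM, with a log2 ratio of -0.32 ± 0.10. Cep192 was slightly higher, at 32.9 and 34.8 CPM against 28.3 and 29.1 CPM, a log2 ratio of 0.24 ± 0.045. Ldlrad4, the farthest from Ptpn2, was again clearly higher in HFD, at 17.9 and 17.5 CPM against 10.9 and 10.5 CPM, a log2 ratio of 0.73 ± 0.053. In all, 7 of the 10 genes had both HFD libraries above both ND libraries, 2 had both below and 1 overlapped. Among the 25470 genes tested, 31.6% had both HFD libraries above and 35.9% both below. A log2 ratio of at least 0.58, which 6 of the 10 genes had, was found in 2.27% of the genes tested. The members were chosen on this contrast, so nothing is read from these shares.

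**Figure D1:**
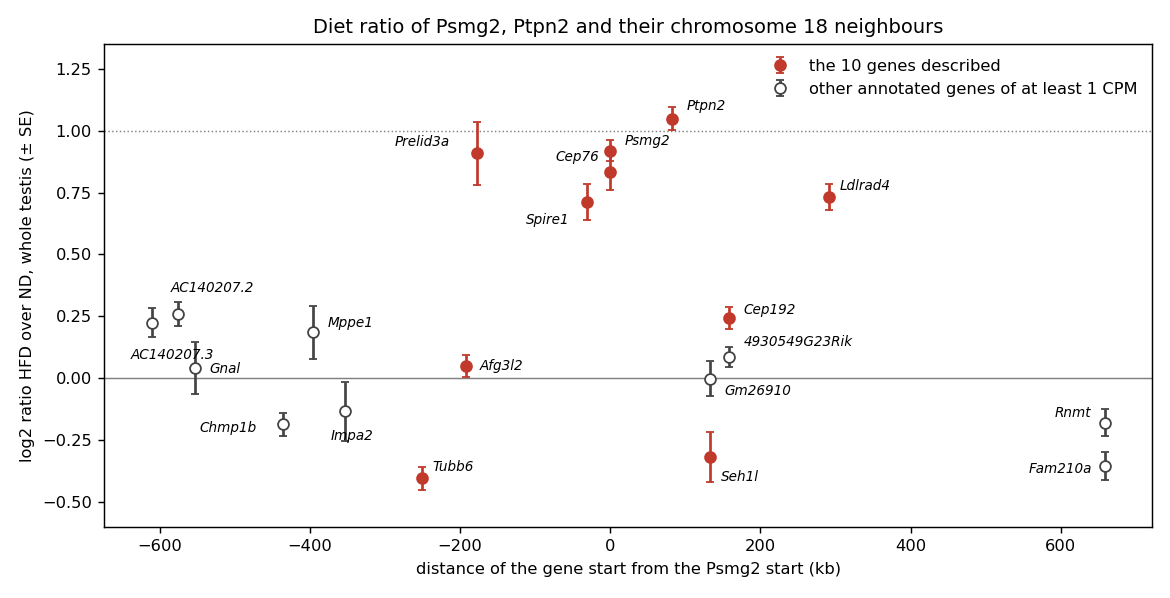
Log2 ratio of HFD over ND in the whole testis (vertical axis, bars show the SE) against the distance of each gene's start from the start of Psmg2 in kb. Filled points are the 10 genes described. Open points are the other annotated genes of at least 1 CPM between Tubb6 and Ldlrad4 or up to 500 kb beyond them. Prelid3a, Spire1, Cep76, Psmg2, Ptpn2 and Ldlrad4 lie between 0.71 and 1.05, while the open points lie between -0.35 and 0.26.

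The window that reaches 500 kb beyond Tubb6 and Ldlrad4 holds 31 other annotated genes, of which 16 passed the filter on low counts. These were tested with edgeR, a count model. The quasi-likelihood test with Benjamini-Hochberg adjustment called 2 of the 16 higher and 3 lower in HFD. Across all genes tested it called 15.3% higher and 18.9% lower. Both higher ones were lincRNAs upstream of Tubb6: AC140207.2 with a log2 ratio of 0.26 ± 0.049 (edgeR adjusted p = 9.37e-04) and AC140207.3 with 0.22 ± 0.058 (edgeR adjusted p = 0.00771). The call of AC140207.3 ended without HFD 2, where the log2 ratio was 0.12 (edgeR adjusted p = 0.151). The lower ones were Fam210a at -0.35 ± 0.057, Chmp1b at -0.19 ± 0.046 and Rnmt at -0.18 ± 0.055. Chmp1b encodes a subunit of the ESCRT-III membrane-scission complex and Rnmt the enzyme that methylates the mRNA cap. The call of Rnmt was lost when HFD 1, HFD 2 or ND 1 was left out, at log2 ratios of -0.17, -0.18 and -0.17. Within the classes 2 of 60 tests of the window's other genes were called, Fam210a lower in pachytene and later spermatocytes and Chmp1b lower in elongating spermatids, beside 6.1% and 3.11% of all genes called lower there. Neither lincRNA was called in a class. In early spermatocytes, pachytene and later spermatocytes, round spermatids and elongating spermatids the log2 ratios of AC140207.2 were 0.11, 0.09, 0.31 and 0.17. Those of AC140207.3 were 0.005, 0.05, 0.12 and 0.19. Leydig and Sertoli cells gave 0.34 and 0.27 for AC140207.2 and 0.92 and 0.20 for AC140207.3. Among the named classes only AC140207.2 in macrophages was below 0, at -0.25. Both lincRNAs are among the leading genes of a cluster of pachytene and later spermatocytes. That class held 25.5% and 28.9% of the cells in HFD and 22.2% and 21.5% in ND. The part of this share in the whole-testis values was not tested. The 10 of these other genes at 1 CPM or more had log2 ratios between -0.35 and 0.26. Seh1l overlaps 4930549G23Rik, an antisense RNA at 95.7 and 92.8 CPM in HFD and 89.4 and 88.4 CPM in ND. How the counting treated strand is not given in the sources used here, so the values of Seh1l are uncertain to that extent. The same holds for Ldlrad4, whose end is overlapped by Fam210a on the other strand.

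The diets were then compared within each class. Psmg2 had the same order in all 9: both HFD libraries lay above both ND libraries each time. The sums of a class may hold RNA of other classes, as in Sertoli cells, and mixes of clusters that moved between the diets. The part of these in the ratios was not tested. In early spermatocytes Psmg2 was at 130 and 136 CPM in HFD and at 72.8 and 66.7 CPM in ND, a log2 ratio of 0.94 ± 0.069. In pachytene and later spermatocytes it was at 52.7 and 54.5 CPM against 26.8 and 27.0 CPM, a log2 ratio of 1.01 ± 0.044. Round spermatids had 94.1 and 94.2 CPM against 50.5 and 48.6 CPM, a log2 ratio of 0.90 ± 0.040. In these 3 classes the libraries of one diet lay close together and the diets far apart. In elongating spermatids, where the gene was lowest, the values were 19.9 and 19.6 CPM against 7.81 and 8.45 CPM, a log2 ratio of 1.23 ± 0.10. In the somatic classes the counts were small. Leydig cells had 38.5 and 40.8 CPM of Psmg2 in HFD and 17.5 and 17.9 CPM in ND, a log2 ratio of 1.12 ± 0.25 on 152 and 83 UMIs. Sertoli cells had 31.2 and 39.0 CPM against 13.4 and 10.2 CPM, a log2 ratio of 1.58 ± 0.27 on 107 and 41 UMIs. The macrophage, lymphocyte and fibroblast and peritubular classes gave log2 ratios of 0.81 ± 0.50, 1.94 ± 0.56 and 0.67 ± 0.43, on 26 and 16, 35 and 7, and 37 and 20 UMIs in HFD and ND. With 1 library left out they were 0.33 to 1.355 in macrophages, lowest without ND 2 and highest without ND 1. In lymphocytes they were 1.60 to 2.51, and in fibroblast and peritubular cells 0.34 to 0.99, lowest without HFD 1.

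Ptpn2 could be fitted in 7 classes and had both HFD libraries above both ND libraries in each. Early spermatocytes had 56.3 and 60.5 CPM in HFD and 31.7 and 28.7 CPM in ND, a log2 ratio of 0.96 ± 0.095. Pachytene and later spermatocytes had 30.6 and 28.6 CPM against 15.4 and 14.9 CPM (0.98 ± 0.058). Round spermatids had 28.4 and 29.5 CPM against 12.6 and 14.1 CPM (1.09 ± 0.064), and elongating spermatids 9.01 and 9.68 CPM against 4.57 and 4.28 CPM (1.02 ± 0.13). The germ classes thus gave nearly the same ratio at levels that differed several-fold. Outside the germ line, Leydig cells had 34.5 and 25.6 CPM against 10.1 and 9.55 CPM (1.58 ± 0.30). Sertoli cells showed the smallest ratio, 26.5 and 23.4 CPM against 16.8 and 19.2 CPM (0.49 ± 0.26). Lymphocytes had 46.3 and 55.8 CPM against 17.6 and 16.8 CPM (1.51 ± 0.61), on 26 and 7 UMIs. Ptpn2 passed the filter in lymphocytes only through the HFD libraries, so nothing is read from its order there. In the macrophage and the fibroblast and peritubular classes Ptpn2 did not pass the filter. Its diets overlapped in macrophages, and both HFD libraries lay above both ND libraries in fibroblast and peritubular cells.

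**Figure D2:**
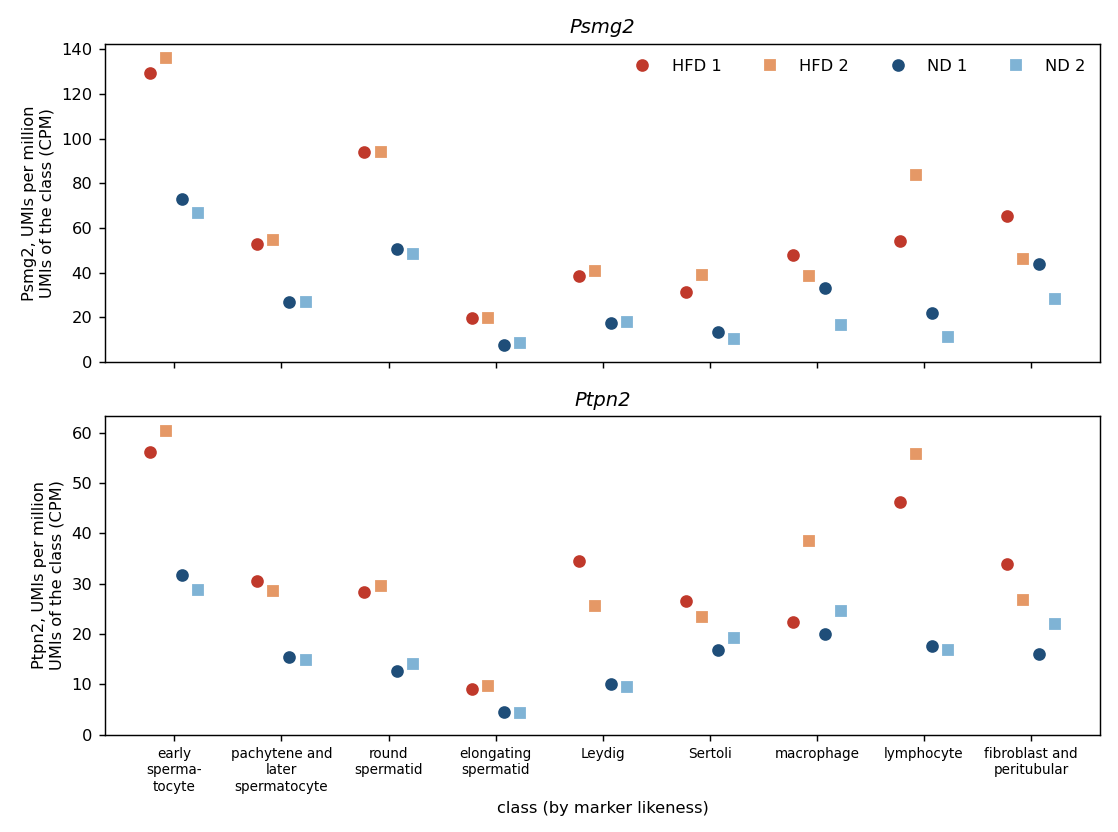
Level of Psmg2 (upper panel) and Ptpn2 (lower panel) in CPM of the class, for 9 classes named by marker likeness, with 1 point per library. For Psmg2 both HFD points lie above both ND points in every class, and for Ptpn2 they do in every class but macrophages, where HFD 1 at 22.4 lies below ND 2 at 24.6.

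The order of the libraries was also described in the finer clusters. In each of the 26 clusters, named or not, both HFD libraries had a higher CPM of Psmg2 than both ND libraries, with a median ratio of the diet means of 1.96. In a cluster of 44 endothelial cells that order rests on 4 and 1 UMIs of Psmg2 in HFD and ND. For Ptpn2 the same order held in 24 of the 26 clusters, with a median ratio of 2.0. The exceptions were the macrophage cluster and the endothelial cluster. Ldlrad4 had HFD above ND in 21 clusters, Spire1 and Cep76 in 17 each and Prelid3a in 16, with none of these genes lower in any cluster. The order of Ldlrad4 rests on 2 and 0 UMIs in HFD and ND in the endothelial cluster and on 6 and 1 in the lymphocyte cluster. Tubb6 was higher in 3 clusters and lower in 9, Afg3l2 higher in 3 and lower in 11, and Cep192 higher in 9 and lower in 5. The clusters share the same 4 libraries and are not independent. The share of all genes with each order in a cluster is not given here. The genes described were also chosen on the contrast between the diets, so nothing is read from these counts of clusters. In every class of several clusters the same cluster held most cells in both diets, though the shares moved: of the Leydig cells, 36.0% in HFD and 20.1% in ND belonged to a cluster led by Malat1 and Neat1.

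Of the smaller genes of the run, Prelid3a passed the filter in the 4 germ classes and had HFD above ND in each, at log2 ratios of 0.68 to 1.07. The lowest, 0.68 ± 0.49 in elongating spermatids, rests on 22 and 14 UMIs and was 0.29 without ND 1 and 1.19 without ND 2. Prelid3a passed the filter in that class only through the HFD libraries, so nothing is read from its order there. In Leydig and Sertoli cells, where Prelid3a did not pass, the diets overlapped. In round spermatids it was at 2.07 and 2.5 CPM against 1.02 and 1.12 CPM. Cep76 had HFD above ND in the 5 classes where it passed, with log2 ratios of 0.48 ± 0.17 in early spermatocytes, 0.87 ± 0.11 in pachytene and later spermatocytes, 0.72 ± 0.096 in round spermatids, 0.84 ± 0.11 in elongating spermatids and 1.15 ± 0.55 in Leydig cells. The last value rests on 19 and 10 UMIs and was 0.73 to 1.80 with 1 library left out, highest without ND 2. Cep76 passed the filter in Leydig cells only through the HFD libraries, so nothing is read from its order there. In Sertoli cells, where Cep76 did not pass, the diets overlapped. When every cell was thinned to 2000 UMIs, the early spermatocyte ratio of Cep76 turned to -0.44. Spire1 had HFD above ND in 4 of 5 classes. In round spermatids it was at 15.3 and 15.2 CPM against 7.34 and 7.86 CPM, a log2 ratio of 0.98 ± 0.076, and in elongating spermatids at 18.02 and 17.51 CPM against 8.95 and 9.39 CPM, a log2 ratio of 0.90 ± 0.10. The exception was pachytene and later spermatocytes, where it was nearly silent, at 0.603 and 0.543 CPM against 0.372 and 0.655 CPM. Ldlrad4 had HFD above ND in 5 of 6 classes, with log2 ratios of 0.69 ± 0.060 in pachytene and later spermatocytes, 0.64 ± 0.064 in round spermatids and 0.52 ± 0.14 in elongating spermatids. Early spermatocytes, with 2.36 to 3.86 CPM of Ldlrad4, overlapped between the diets.

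**Figure D3:**
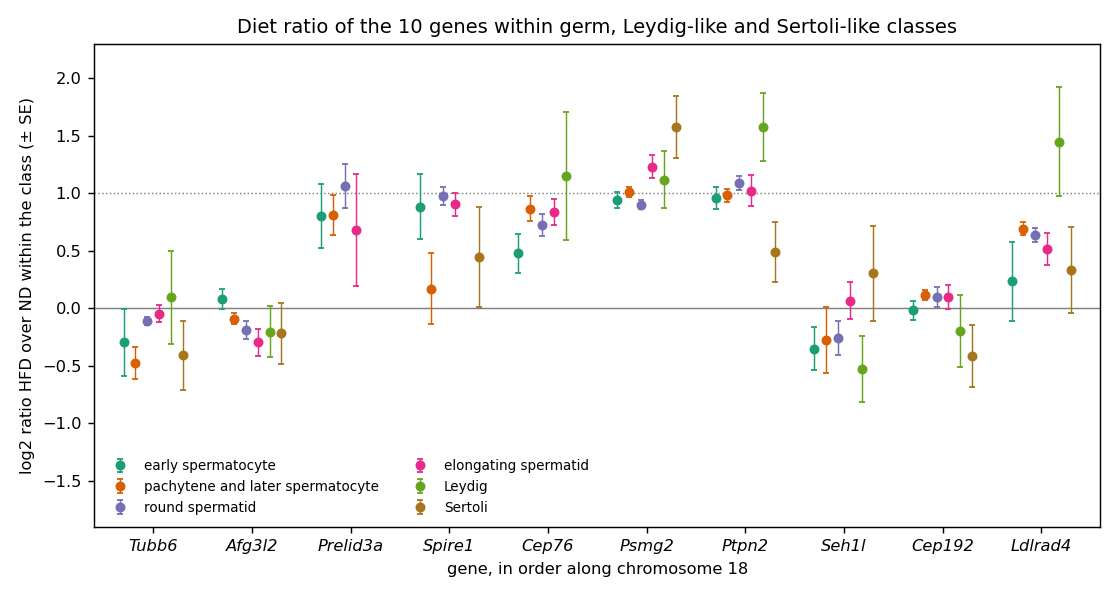
Log2 ratio of HFD over ND within 4 germ classes, Leydig and Sertoli cells (vertical axis, bars show the SE) for the 10 genes in their order along the chromosome. The points of Psmg2 and Ptpn2 lie between 0.90 and 1.23 in the germ classes and between 0.49 and 1.58 in Leydig and Sertoli cells, those of Prelid3a, Spire1, Cep76 and Ldlrad4 lie above 0, and those of Tubb6, Afg3l2, Seh1l and Cep192 lie between -0.53 and 0.31.

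The remaining 4 genes had log2 ratios between -0.82 and 0.37 within classes. Tubb6, found mostly in round spermatids, was there at 109 CPM in both HFD libraries and at 115 and 117 CPM in ND, a log2 ratio of -0.11 ± 0.035, against -0.40 in the whole testis. In other classes Tubb6 was at -0.48 ± 0.14 in pachytene and later spermatocytes, -0.41 ± 0.30 in Sertoli cells and -0.82 ± 0.50 in fibroblast and peritubular cells, each with both HFD libraries below both ND libraries. The last of these was -1.42 without HFD 1. In early spermatocytes, elongating spermatids and Leydig cells the diets overlapped. Round spermatids made up 16.6% of the cells in both HFD libraries and 21.3% and 21.5% in the ND libraries. Cep192 and Afg3l2 are both abundant in spermatocytes. Cep192 had log2 ratios of -0.02 ± 0.080 in early spermatocytes and 0.12 ± 0.042 in pachytene and later spermatocytes, against 0.24 in the whole testis. Afg3l2 had 0.08 ± 0.086 in early spermatocytes, where the diets overlapped, -0.09 ± 0.048 in pachytene and later spermatocytes and -0.19 ± 0.080 in round spermatids, against 0.05 in the whole testis. In elongating spermatids it was -0.30 ± 0.12, and in macrophages -0.56 ± 0.47 on 18 and 29 UMIs. Both HFD libraries lay below both ND libraries in 5 of the 8 classes where Afg3l2 passed, and the diets overlapped in 3. The unweighted mean over its classes was -0.23. Pachytene and later spermatocytes made up 25.5% and 28.9% of the cells in HFD and 22.2% and 21.5% in ND. Seh1l was lower in HFD in early spermatocytes, round spermatids and Leydig cells, at log2 ratios of -0.35 ± 0.19, -0.25 ± 0.15 and -0.53 ± 0.29, and at 0.07 ± 0.16 in elongating spermatids, which turned to -0.03 without ND 2.

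Among the germ classes, HFD lay above ND for 5 of the 10 genes in early spermatocytes, 6 in pachytene and later spermatocytes, 7 in round spermatids and 8 in elongating spermatids. In the same classes 19.9%, 24.7%, 23.2% and 25.5% of the genes tested had that order, and 20.6%, 28.0%, 23.5% and 24.4% the opposite one. In the Leydig, Sertoli, macrophage, lymphocyte and fibroblast and peritubular classes HFD lay above ND for 24.3%, 17.1%, 18.3%, 18.2% and 19.6% of the genes tested, and it lay below for 25.7% in Leydig and 19.3% in Sertoli cells. The median log2 ratios of the 10 genes in the germ classes were 0.36, 0.43, 0.68 and 0.60, beside medians over all genes tested between -0.01 and 0.00. Since the 10 genes were chosen on this contrast, nothing is read from these counts and medians. The cells left unnamed gave log2 ratios of 0.94 ± 0.074 for Psmg2 and 1.02 ± 0.095 for Ptpn2.

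Counted per cell at equal depth, the difference was visible in the share of cells with a UMI. Cells were thinned to 2000 UMIs, and shallower cells were left out. These were 5 to 34 per library in round spermatids and 5 to 78 in early spermatocytes. More were lost in ND than in HFD in pachytene and later spermatocytes, 441 and 455 against 169 and 322, and in elongating spermatids, 220 and 157 against 29 and 72. In round spermatids Psmg2 was then seen in 17.6% of 2168 cells in HFD 1 (95% exact binomial interval 16.04% to 19.3%) and in 17.05% of 2241 cells in HFD 2 (15.5% to 18.7%). In ND 1 it was seen in 9.66% of 3054 cells (8.63% to 10.8%) and in ND 2 in 9.16% of 2960 cells (8.14% to 10.2%). Like all such intervals here, these cover counting error only, over the cells of a library, and they are no test of the diet. Ptpn2 was seen in 6.04% and 5.44% of these cells in HFD and in 2.49% and 2.5% in ND. Afg3l2 showed the opposite order in the same cells, with 1.75% and 1.70% in HFD and 2.42% and 2.36% in ND. Without thinning, 69.9% and 64.6% of the round spermatids in HFD and 45.2% and 46.0% in ND had a UMI of Psmg2, at median depths of 11215 to 13415 UMIs. The positive cells then held 2.22 and 2.13 UMIs of Psmg2 each in HFD and 1.53 and 1.52 in ND.

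In early spermatocytes Psmg2 was seen at equal depth in 24.4% and 23.6% of the cells in HFD and in 12.8% and 10.4% in ND. Pachytene and later spermatocytes had 9.19% and 10.1% against 6.20% and 5.53%. No testis class is known to lack Psmg2, so no background share from free RNA could be given. The lowest share among the germ classes was that of elongating spermatids, 3.39% and 3.86% in HFD and 1.67% and 1.57% in ND, at median depths of 5394.5 to 6575.5 UMIs before thinning. Having one of the genes in a cell went with no steady difference in the other. Among round spermatids with a UMI of Psmg2, 4.97%, 6.28%, 2.37% and 3.32% also had Ptpn2 in HFD 1, HFD 2, ND 1 and ND 2, against 6.27%, 5.27%, 2.5% and 2.42% of those without it.

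**Figure D4:**
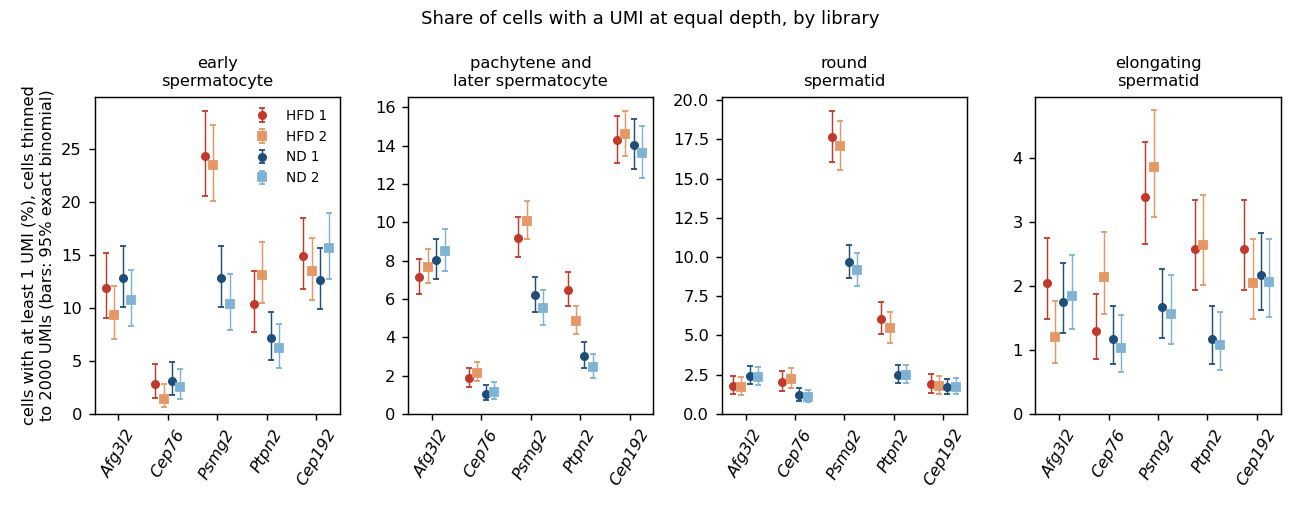
Share of cells with at least 1 UMI, in percent, after every cell was thinned to 2000 UMIs, for 5 of the genes in 4 germ classes, with 1 point per library and exact binomial 95% intervals. In round spermatids the Psmg2 shares are 17.6% and 17.05% in HFD and 9.66% and 9.16% in ND, while those of Cep192 lie between 1.70% and 1.89% in all 4 libraries.

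The 10 genes differed in where they were expressed. The level of a gene was compared between pairs of classes with edgeR, with the library as a block, over all genes and with Benjamini-Hochberg adjustment. In these contrasts most genes pass the test: from early to pachytene and later spermatocytes 81.4% of the genes tested were called, from there to round spermatids 90.1%, and from round to elongating spermatids 78.7%. The shares called higher and lower were 40.6% and 40.8%, 44.9% and 45.2%, and 38.3% and 40.4%, and for Leydig over Sertoli cells 75.2% were called. The Sertoli sums held many UMIs of elongating spermatid markers, so the Leydig over Sertoli contrasts below compare Leydig cells with that mixture. Of the 10 genes, 1 was higher and 6 were lower in the first step, 6 higher and 3 lower in the second, and 5 higher and 5 lower in the last. Scaling by plain totals in place of TMM factors, an alternative chosen after the data had been seen, moved the median of all genes by -0.38, -0.27 and -0.59 in the 3 steps. With plain totals the counts of the 10 genes were 1 higher and 9 lower, 4 higher and 3 lower, and 4 higher and 6 lower. Directions below held under both scalings unless stated.

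Psmg2 was highest in early spermatocytes in both diets and lowest in elongating spermatids. In ND it was at 69.7 ± 4.30 CPM (SD, n = 2 libraries) in early spermatocytes, 49.5 ± 1.38 in round spermatids, 36.1 ± 11.01 in fibroblast and peritubular cells, 26.9 ± 0.192 in pachytene and later spermatocytes, 24.8 ± 11.9 in macrophages, 17.7 ± 0.228 in Leydig cells, 16.6 ± 7.66 in lymphocytes, 11.8 ± 2.27 in Sertoli cells and 8.13 ± 0.456 in elongating spermatids. The libraries of neighbouring classes overlapped in 4 of the 8 steps of that order, from pachytene and later spermatocytes through macrophages, Leydig cells and lymphocytes to Sertoli cells. In HFD the order ran from 133 ± 4.59 CPM in early spermatocytes through 94.2 ± 0.0504 in round spermatids to 19.7 ± 0.218 in elongating spermatids. Over all 4 libraries Psmg2 fell from early to pachytene and later spermatocytes by 0.94 ± 0.043 on the log2 scale (edgeR adjusted p = 6.12e-26). It rose from there to round spermatids by 1.10 ± 0.036 (edgeR adjusted p = 5.42e-14) and fell to elongating spermatids by 1.80 ± 0.059 (edgeR adjusted p = 1.38e-19). All 4 libraries followed that course. Leydig over Sertoli cells gave 0.38 ± 0.19 (edgeR adjusted p = 0.0739), which did not pass. In the ND libraries alone it was 0.66 (edgeR adjusted p = 0.0304).

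Ptpn2 had the same ends of the order but a flatter middle. In ND it was at 30.2 ± 2.09 CPM in early spermatocytes, 22.3 ± 3.31 in macrophages, 19.0 ± 4.30 in fibroblast and peritubular cells, 17.995 ± 1.73 in Sertoli cells, 17.2 ± 0.58 in lymphocytes, 15.2 ± 0.337 in pachytene and later spermatocytes, 13.4 ± 1.05 in round spermatids, 9.81 ± 0.375 in Leydig cells and 4.43 ± 0.210 in elongating spermatids. In HFD early spermatocytes had 58.4 ± 2.96 CPM and elongating spermatids 9.35 ± 0.475. Ptpn2 fell from early to pachytene and later spermatocytes by 0.60 ± 0.058 and from round to elongating spermatids by 1.03 ± 0.070 on the log2 scale, with edgeR adjusted p of 2.32e-13 and 9.26e-13. Between pachytene and later spermatocytes and round spermatids it gave 0.17 ± 0.048 (edgeR adjusted p = 0.00421). That direction depended on the scaling, since plain totals gave -0.10 (edgeR adjusted p = 0.115), and with doublets kept it was 0.08 (edgeR adjusted p = 0.0963). Leydig and Sertoli cells differed by -0.17 ± 0.22 (edgeR adjusted p = 0.503), and in ND alone by -0.79 (edgeR adjusted p = 0.013).

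Cytoskeletal and mitochondrial neighbours followed courses of their own. Tubb6 was all but restricted to spermatids within the germ line, at 2.88 ± 0.611 CPM (SD, n = 4 libraries) in pachytene and later spermatocytes and 113 ± 4.03 CPM in round spermatids, a rise of 5.58 ± 0.057 on the log2 scale (edgeR adjusted p = 4.39e-20). In elongating spermatids it was back to 40.9 ± 2.88 CPM. Spire1 also rose into round spermatids, but fell before that step by 2.61 ± 0.22 and rose again after it by 0.83 ± 0.064, where Tubb6 fell by 0.87 ± 0.039. Over 9 alternatives the earlier step of Spire1 gave -2.99 to -1.70, and with plain totals the later one gave 0.24. Spire1 was at 4.33 ± 1.49 CPM in early spermatocytes, 0.543 ± 0.123 in pachytene and later spermatocytes, 11.4 ± 4.41 in round spermatids and 13.5 ± 4.97 in elongating spermatids. Its rise into round spermatids was 4.67 ± 0.13 (edgeR adjusted p = 4.61e-15). The large SDs of Psmg2, Ptpn2 and Spire1 over 4 libraries hold the diet difference. Afg3l2 fell instead, from 55.0 ± 3.31 CPM in early spermatocytes and 39.6 ± 2.17 in pachytene and later spermatocytes to 9.601 ± 0.694 in round spermatids, a log2 difference of -1.78 ± 0.048 in the last step (edgeR adjusted p = 4.42e-15). From round to elongating spermatids its direction turned with the scaling, 0.43 with TMM factors and -0.16 with plain totals. Prelid3a was highest in early spermatocytes, at 4.49 ± 1.40 CPM, and fell in the step to pachytene and later spermatocytes and in that to elongating spermatids, by 1.03 ± 0.17 and 1.20 ± 0.22.

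The centrosomal pair diverged. Cep192 stood at 65.2 ± 2.92 CPM in early spermatocytes and 48.1 ± 2.20 in pachytene and later spermatocytes, and fell by 2.39 ± 0.046 on the log2 scale into round spermatids (edgeR adjusted p = 6.17e-17), where it was at 7.64 ± 0.482 CPM. Cep76 varied less over the germ classes, between 6.67 ± 2.297 and 11.7 ± 2.25 CPM, and was higher in elongating than in round spermatids by 1.19 ± 0.075 (edgeR adjusted p = 1.82e-13). Psmg2, which 262 bp separate from Cep76, fell in that step. Seh1l nearly disappeared in pachytene and later spermatocytes, at 0.568 ± 0.114 CPM against 9.89 ± 1.53 in early spermatocytes, a log2 difference of -3.72 ± 0.17 (edgeR adjusted p = 3.40e-26), and returned to 2.94 ± 0.370 in round spermatids. It was highest in Leydig cells, at 20.01 ± 5.08 CPM, and there exceeded Sertoli cells by 1.36 ± 0.26 (edgeR adjusted p = 3.66e-05). The Sertoli sums were mixed, and elongating spermatids had 4.51 ± 0.332 CPM of Seh1l. The part of this mixture in the difference was not tested. Ldlrad4 was the only one of the 10 genes that rose from early to pachytene and later spermatocytes under both scalings, from 3.14 ± 0.635 to 20.8 ± 5.58 CPM, by 3.10 ± 0.12 on the log2 scale (edgeR adjusted p = 6.68e-29).

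**Figure D5:**
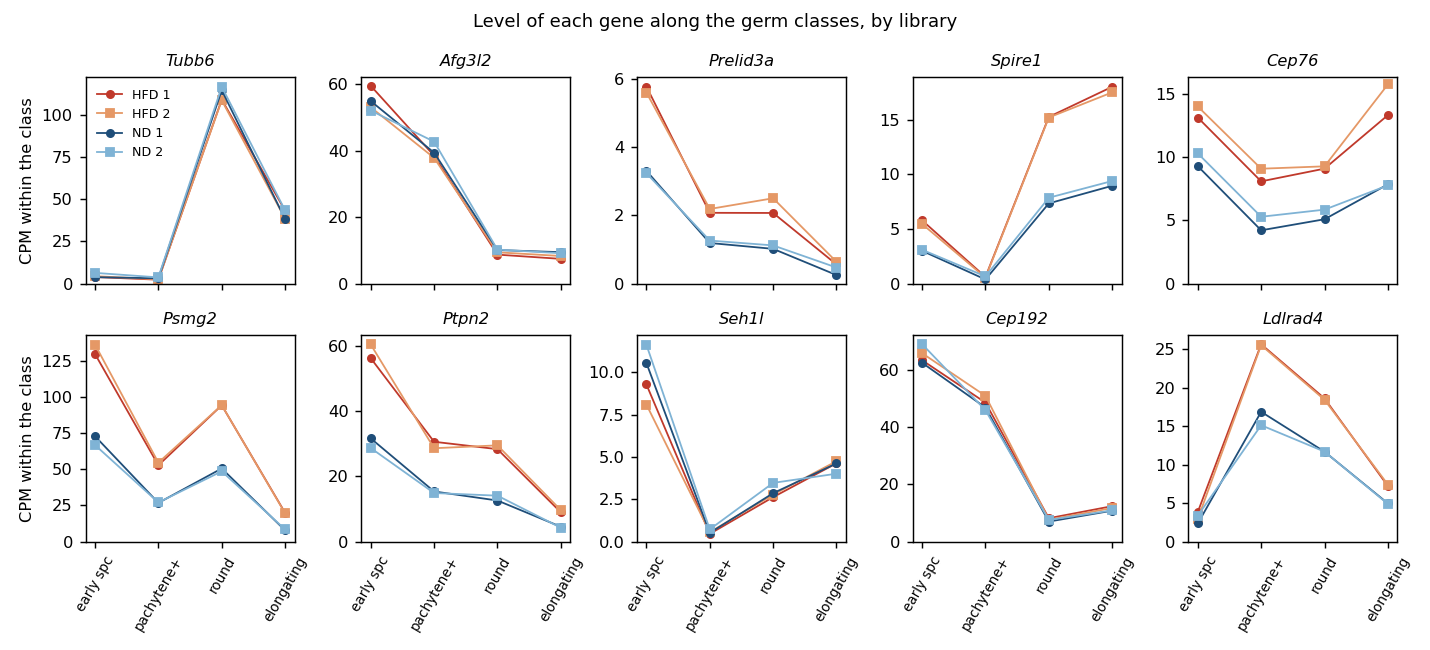
Level of each of the 10 genes in CPM along early spermatocytes, pachytene and later spermatocytes, round spermatids and elongating spermatids, with 1 line per library and a separate vertical axis from 0 for each gene. For Psmg2, Ptpn2 and Cep76 the HFD lines run above the ND lines over the whole course, while the lines of Cep192 and Tubb6 lie nearly on top of each other.

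The genes whose pattern was most like that of Psmg2 were sought over 36 sums, 9 classes in 4 libraries, among 7014 genes with a mean of at least 20 CPM. By Pearson correlation of log2(CPM + 1), Mtrex came first (r = 0.795), Ptpn2 second (r = 0.785) and Pet100 next (r = 0.777). For Ptpn2 they were Dync1i2 (r = 0.822), Wbp4 (r = 0.818) and Prrc2a (r = 0.796), with Psmg2 at rank 5. Mtrex encodes an RNA helicase of the nuclear exosome pathway and Dync1i2 an intermediate chain of cytoplasmic dynein. The sums of a library share its depth and diet, so these correlations describe the 36 sums only. Psmg2 and Ptpn2 were both chosen on the contrast between the diets, so nothing is read from the rank of each for the other. A log2 ratio of at least 0.58 in the whole testis and in each of the 4 germ classes was found in 6 of 12047 genes tested in all 5, and the opposite in 0. Taken singly, the germ classes had 1.89%, 2.02%, 2.14% and 2.41% of their tested genes at or above that ratio. Besides Psmg2, Ptpn2 and Prelid3a, these were Svopl on chromosome 6, Fam177a on chromosome 12 and Vmn1r181 on chromosome 7. Their log2 ratios in the whole testis were 1.15, 1.10 and 0.97. The 10 genes were chosen on this contrast, so nothing is read from the presence of 3 of them among the 6.

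Partners of the 10 proteins were examined in 9 lists of 108 genes, of which 105 were tested in the whole testis. The edgeR quasi-likelihood test with Benjamini-Hochberg adjustment called 19 of them higher and 26 lower in HFD, beside 34.3% of all genes called. Of the proteasome assembly factors, 7 were tested and 3 rose: Pomp at 0.21 ± 0.039 (edgeR adjusted p = 7.67e-04), Psmd5 at 0.17 ± 0.060 (edgeR adjusted p = 0.0374) and Psmg1, the partner of Psmg2. The ratio of Psmg1 was no larger than that of Psmd5, and Psmg1 was called in no class. The call of Psmd5 was lost when HFD 1, HFD 2 or ND 1 was left out. Psmd10 fell by 0.35 ± 0.051 (edgeR adjusted p = 1.24e-04). The list's median log2 ratio was 0.13, against -0.02 for all genes and 0.92 for Psmg2. Among the 18 core subunits 4 rose and 4 fell, with a median of 0.01. Psma8, the testis-specific alpha subunit, was at 146 and 154 CPM in HFD and 127 and 129 CPM in ND (log2 ratio 0.23 ± 0.041). The immunoproteasome subunits Psmb9 and Psmb8 fell by 0.78 ± 0.17 and 0.61 ± 0.13. Both are expressed mainly in immune cells, and in macrophages Psmb8, Psmb9 and Psmb10 were called lower, beside 1.34% of all genes there.

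Of the 21 kinases, STATs, receptors and phosphatases around Ptpn2, edgeR called 10 lower and 1 higher in HFD and did not call the other 10, beside 18.9% of all genes called lower and 15.3% higher. The list had a median log2 ratio of -0.27, beside -0.02 for all genes. Stat5b, Egfr and Ptpn11 had log2 ratios of -0.58 ± 0.19, -0.53 ± 0.18 and -0.45 ± 0.11 at levels under 2.5 CPM. The calls of Stat5b and Ptpn11 were lost without HFD 1, and that of Egfr without HFD 1, HFD 2 or ND 1. Several genes of this list are known mainly from somatic cells. The summed level of the 8 Leydig cell markers was 356 and 351 CPM in HFD and 626 and 560 CPM in ND, and its part in these values was not tested. Among the calls within classes was Jak3, lower in pachytene and later spermatocytes, where 6.1% of all genes were called lower.

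Around the remaining genes the calls went both ways, and the counts of each list stand beside 15.3% of all genes called higher and 18.9% lower. Of the 14 centriole genes, 6 rose and 1 fell, led by Stil at 0.33 ± 0.048 and Aurka, a mitotic kinase, at 0.29 ± 0.038, and the list's median was 0.09. Aurka was also called higher in round spermatids, elongating spermatids and Leydig cells, as were 0.912%, 3.52% and 0.153% of all genes there. It is among the markers that named pachytene and later spermatocytes, where it was not called. That class held 25.5% and 28.9% of the cells in HFD and 22.2% and 21.5% in ND. The part of its RNA in these calls was not tested. Of the 12 nuclear pore and GATOR2 genes that work with Seh1l, 4 rose and 2 fell, among them Nup107 at 0.25 ± 0.056 and Nup160 at -0.32 ± 0.049. The mitochondrial list gave 1 call among 12 genes, Phb at -0.74 ± 0.13, a scaffold protein of the inner membrane. Of 5 beta tubulins tested, Tubb5 and Tubb2a were lower, at -0.43 ± 0.081 and -0.40 ± 0.073. Of the 6 Spire partners 3 fell, among them the actin nucleators Fmn1 and Fmn2, and 1 rose. Without HFD 2 the edgeR adjusted p was 0.0868 for Fmn1 and 0.0657 for Fmn2, past the threshold. Of the 10 TGF-beta genes 2 fell, Smad4 at -0.30 ± 0.060 and Tgfbr1 at -0.27 ± 0.048.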

How the data were processed

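The deposited matrices hold raw UMI counts per gene and barcode, with no normalisation per the file headers, which name software version 3.0.2. Per the labels' protocols, 10x Chromium kits with 3′ v3 chemistry were used for the libraries. The genome build is mm10 per the submitters' processing notes, and the aligner and annotation are not given in the sources used here. All 55450 gene identifiers and symbols matched GENCODE M21 (GRCm38), from which coordinates were taken. No sequence from the region is printed here.

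Barcodes under 200 genes or over 20% mitochondrial UMIs were dropped, and 421 to 853 doublets per library called by Scrublet (scanpy 1.11.5) were left out. The 4 libraries were clustered together (2000 variable genes without the 10 described, 30 principal components, 15 neighbours, Leiden resolution 1, igraph 0.11.9) and clusters were named from marker lists. A minimum marker score, set after the scores were seen, left a cluster of 804 cells, nearest to elongating spermatids, unnamed.

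UMI sums per library, or per library and class of at least 50 cells in each, were tested with edgeR 4.0.16 in R 4.3.3 (filterByExpr, TMM factors, quasi-likelihood test, Benjamini-Hochberg adjustment over all genes tested, threshold 0.05). Ratios are log2 of HFD over ND, and their SE was the absolute ratio over the root of the F statistic. Class contrasts carried the library as a block. CPM of the 10 genes were scaled to plain totals and those of other genes to TMM-scaled totals. The script was checked on simulated counts. DESeq2 1.42.0 and limma 3.58.1 (log2 of CPM plus 1) were alternatives, and leaving out a library, another filter, the mitochondrial limit, doublets, clustering, depth and scaling were the others. An exact permutation test of 2 against 2 libraries cannot go below p = 0.3333, so none was run.

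Other genes were named by rule. Annotated genes between Tubb6 and Ldlrad4 or up to 500 kb beyond them were taken if they passed the filter. The rules also took the 3 genes most similar in pattern to Psmg2 and Ptpn2. Genes past 0.58 in the whole testis and every germ class, and up to 3 called genes of each list, were added. From the lists, Psmg1, Psmb10 and Jak3 were named in addition. The genes described, the lists and these rules were chosen with earlier results of these data known.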

Additional observations from a re-analysis of the deposited data

Results flagged for a closer look

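Seh1l and Cep192 had the diets in opposite order in some pairs of classes, with both libraries of a diet on the same side each time. The difference between the classes was not tested. For Seh1l the log2 ratio of HFD over ND was 0.0658 in elongating spermatids, beside -0.35 in early spermatocytes, -0.25 in round spermatids and -0.53 in Leydig cells. For Cep192 it was 0.12 in pachytene and later spermatocytes, 0.10 in round spermatids, 0.10 in elongating spermatids and 0.37 in macrophages, beside -0.41 in Sertoli cells. The SE was 0.16 for Seh1l in elongating spermatids, and that ratio turned to -0.03 without ND 2 and was also below 0 with doublets kept. For Cep192 it was 0.09 in round spermatids, 0.10 in elongating spermatids, 0.47 in macrophages and 0.27 in Sertoli cells.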

How the results depend on the processing

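Psmg2 in the whole testis gave log2 ratios of 0.90 to 1.13 over 13 alternatives, and Ptpn2 of 1.00 to 1.09. The ends came from the unweighted mean of the class ratios, 1.13 and 1.09, and for Ptpn2 from limma, 1.00. Leaving out each library gave 0.90 to 0.94 for Psmg2 and 1.02 to 1.07 for Ptpn2. The number of genes called in the whole testis was 8724, and it was 5269 with cells thinned to 2000 UMIs and 5098 to 8440 with 1 library left out, lowest without HFD 2. Summed over the classes it was 3486, and 1342 with DESeq2, 2133 without the low count filter, 1255 with thinned cells (in fewer classes, since fibroblast and lymphocyte classes then fell under 50 cells) and 2147 to 7017 with 1 library left out, lowest without HFD 1 and highest without ND 1. Of the 38 class contrasts of the 10 genes, 30 were called, and 30 to 31 with a library left out. Of the 84 log2 ratios of the 10 genes, 14 changed sign under at least 1 alternative, and 13 of these were no larger than the spread between libraries. The other was Cep76 in early spermatocytes with thinned cells (-0.44). Among the class contrasts, directions turned for Cep192 in pachytene and later over early spermatocytes with doublets kept (0.00288), and, under plain totals, Prelid3a (-0.0135) and Ptpn2 (-0.10) in round spermatids over pachytene and later spermatocytes and Afg3l2 (-0.16) in elongating over round spermatids. The cause was not tested. The replicate number as a block gave 10172 calls in the whole testis and 4056 over the classes, where round spermatids went from 321 to 979 and Sertoli cells from 11 to 28, and it left the ratios of Psmg2 and Ptpn2 at 0.92 and 1.05. In the whole testis, deviations of same-numbered libraries correlated at 0.072, and the classes were not examined in that way. The main fits did not pair the libraries, and whether the numbers mark a pairing cannot be told from the labels. The SE of the Psmg2 ratio was 0.25 to 0.56 in the somatic classes, on 7 to 152 UMIs per diet, and 0.040 to 0.10 in the germ classes. Over 13 alternatives the Psmg2 ratio was 0.97 to 1.82 in Leydig cells and 0.97 to 1.82 in Sertoli cells. With 1 library left out it was 1.06 to 1.17 in Leydig and 1.39 to 1.82 in Sertoli cells.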

Other observations

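The classes held clusters in which Psmg2 and Ptpn2 were ordered differently. In early spermatocytes, Psmg2 was at 139 and 143 CPM in HFD and 76.3 and 72.6 CPM in ND in the cluster led by Tex101, and at 91.5 and 106 against 60.3 and 42.3 CPM in the one led by Dazl, which also scored for spermatogonia. Ptpn2 had the reverse order, with 54.5 and 56.2 against 30.9 and 27.3 CPM in the former and 63.3 and 77.8 against 34.5 and 34.8 CPM in the latter. Of the 4 round spermatid clusters, the one that also scored for elongating spermatids had the lowest Psmg2, 53.8 and 55.8 CPM in HFD and 27.9 and 28.6 CPM in ND, and the lowest Ptpn2, 10.3 and 14.1 against 6.37 and 7.99 CPM. No difference between clusters was tested.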
